A study of Arabidopsis thaliana with 8 samples.

Results

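The cytochrome P450 genes described here are those whose symbol in the array annotation is CYP followed by a family number and a subfamily letter, each read by a probe set paired with that gene alone, with CYP71B22 left out. There are 22 of them among the 13356 genes that have such a probe set. They cover 9.32% of the 236 Arabidopsis genes that carry a symbol of this form in the RefSeq annotation of assembly TAIR10.1, and all 22 were found there. The other P450 genes were not analysed here. Transcript levels had been measured on Affymetrix ATH1 arrays in vegetative shoot apices of Arabidopsis thaliana plants grown for 20 days in short days, with 2 arrays for each of 4 genotypes. The first is se-1, a hypomorphic allele of SERRATE, which encodes a zinc-finger protein of microRNA processing. The second is ago1-27, a hypomorphic allele of ARGONAUTE1, which encodes the protein that carries microRNAs to their targets. The third is se-1 carrying the transgene p35S::MIR156, in which the broadly active 35S promoter of a plant virus drives a miR156 precursor. It shares the se-1 allele with the first, and the labels do not say how many transgenic lines it represents. The last is the wild type Col-0. Nothing in the labels says that both arrays of a genotype were made from different plants, and p-values here reflect only how far these samples spread.

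Cytochromes P450 are haem enzymes, most of them in the endoplasmic reticulum. They typically insert an oxygen atom into small molecules, with electrons passed on by a reductase. In plants they form one of the largest enzyme families and act in the synthesis and breakdown of hormones, sterols, lignin, pigments and defence compounds. Families are grouped into clans by descent, and the large clan 71 holds most of the enzymes of specialised metabolism. Its subfamily CYP71B includes CYP71B15 (PAD3), an enzyme of camalexin synthesis, while most of its other members have no well-established substrate.

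Of the 22 genes, 18 belong to the subfamily CYP71B, and the other 4 are CYP78A9, CYP79A2, CYP84A4 and CYP51G2. By clan, 21 are in clan 71 and 1, CYP51G2, is in clan 51, so a comparison of clans rests on a single gene on one side. RefSeq annotates CYP51G2, a relative of the sterol demethylase CYP51G1, and CYP71B27 as transcribed pseudogenes.

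Signals are the authors' linear values, scaled so that the arrays have similar means. The median signal lay between 76.6 and 82.4 on the 8 arrays. Background was taken from the 27 bacterial control probe sets, the brightest of which gave between 14.2 and 34.1 on each array, and between 65.1% and 74.2% of plant probe sets lay above it. The actin 3' to 5' signal ratio, which reflects how complete the labelled RNA is, was 2.97 and 4.22 in se-1, 4.83 and 4.40 in ago1-27, 3.26 and 3.48 in se-1 p35S::MIR156, and 3.91 and 2.81 in Col-0. Changes were tested with limma on log2(signal + 16), which understates the change of dim genes, over the 15922 probe sets left after the lowest 30% by mean were removed. A gene is called changed at a Benjamini-Hochberg adjusted p under 0.05 over all of these. The same arrays serve in several comparisons, since 3 of the 5 share the Col-0 arrays and 3 share the se-1 arrays. Both comparisons with ago1-27 share its arrays.

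Most of the 22 P450 genes gave little or no signal in the apices. Of the 22, 7 lay above background on every array, 6 on some arrays and 9 on none. On single arrays, between 7 and 11 of the 22 lay above it, against 65.1% to 74.2% of plant probe sets. The 22 are 9.32% of the genes with such symbols, so these counts do not describe the whole family. The test covered the 10 genes whose mean passed the filter, namely CYP78A9, CYP84A4 and 8 of the 18 CYP71B genes, all of clan 71. The other 12 fell below the filter, and their highest signal was 30.7, for CYP71B23 on an ago1-27 array whose brightest bacterial control was at 34.1. At the limit of the filter, a mean log2(signal + 16) of 5.13, CYP71B38 was just inside at 5.26 and CYP51G2 just outside at 5.04. None of the untested genes lay above background on more than 1 array. CYP79A2, which makes phenylacetaldoxime from phenylalanine for benzylglucosinolate, was within background on all 8 arrays, between 0.911 and 12.8. So was CYP71B31, an oxidase of linalool in flowers, between 0.496 and 10.12.

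**Figure D1:**
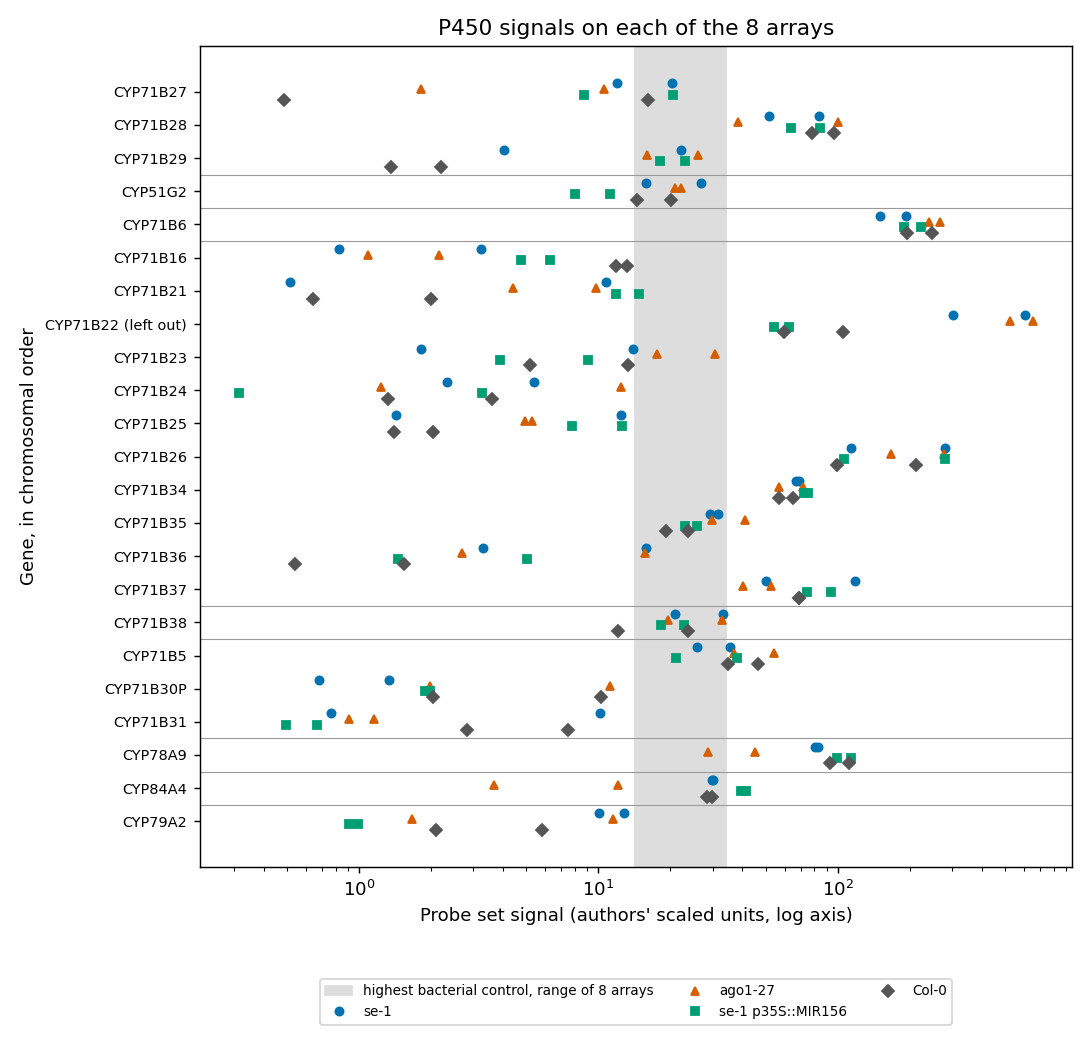
Probe set signal of the 22 P450 genes and of CYP71B22 on each of the 8 arrays (horizontal log axis, authors' scaled units), with genes in chromosomal order and lines between separate runs of neighbours. Each symbol is 1 array, in blue for se-1, orange for ago1-27, green for se-1 p35S::MIR156 and grey for Col-0, and the shaded band is the range of the highest bacterial control, 14.2 to 34.1. CYP78A9 and CYP84A4 have their ago1-27 symbols left of all others.

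CYP78A9 had lower signals in ago1-27 apices than in the other genotypes. This enzyme, a relative of KLUH (CYP78A5), is known to promote the growth of fruits and seeds. Its probe set (locus AT3G61880) gave signals of 83.1 and 80.4 in se-1, 28.6 and 45.3 in ago1-27, 113 and 99.0 in se-1 p35S::MIR156, and 111 and 92.8 in Col-0. Both ago1-27 arrays lay below all 6 others, and the se-1 arrays lay below both arrays of the transgenic line and of Col-0. The genotype means were 81.7 ± 1.88 in se-1, 37.0 ± 11.8 in ago1-27, 106 ± 10.08 in se-1 p35S::MIR156 and 102 ± 13.1 in Col-0 (SD, n = 2 each). All 8 signals were above background, but those of ago1-27 were near it. The highest bacterial control was 22.0 on ago1-27 replicate 1 and 34.1 on replicate 2. The mean signal of ago1-27 was 0.362 times that of Col-0, and the fitted change was 0.444-fold. With ago1-27 this close to background, the size of the fall is uncertain.

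On the log2 scale, CYP78A9 changed by -1.17 in ago1-27 relative to Col-0 (95% interval -1.65 to -0.69, adjusted p = 0.0142 by limma). It was the 1 gene called lower among the 10 tested, and none was called higher. Over all tested probe sets, 0.911% were called lower and 0.754% higher in this comparison. Without Col-0 replicate 1 the adjusted p was 0.168, without Col-0 replicate 2 it was 0.0767, without ago1-27 replicate 1 it was 0.0676, and with dim probe sets kept in it was 0.0928, with the change between -1.28 and -0.94 in these settings.

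CYP78A9 was also higher in se-1 than in ago1-27, by 0.90 (95% interval 0.42 to 1.38, adjusted p = 0.0402 by limma). The ago1-27 arrays are the same as in the comparison with Col-0, so these are not independent results. CYP78A9 was the 1 gene called higher of the 10, with none called lower. Over all tested probe sets, 2.19% were called higher and 1.19% lower. The call was lost in 10 of 16 alternative settings, 7 of which leave out 1 array, any but ago1-27 replicate 2. The adjusted p lay between 0.0316 and 0.160 and the change between 0.53 and 1.16 over the 16. In se-1 relative to Col-0 the change was -0.27 (95% interval -0.75 to 0.21, adjusted p = 0.714). Relative to se-1, se-1 p35S::MIR156 had a change of 0.32 (95% interval -0.16 to 0.80, adjusted p = 0.727), and relative to Col-0 one of 0.05 (adjusted p = 0.980). Neither passed the test. The order of the genotype means was therefore se-1 p35S::MIR156, Col-0, se-1 and ago1-27. Among neighbours in this order, se-1 and ago1-27 differed, and the other neighbouring pairs did not pass the test. The transgenic line was not compared with ago1-27.

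CYP84A4 had the same lowest genotype but did not pass the test. This enzyme hydroxylates p-coumaraldehyde in the synthesis of arabidopyrones, which derive from the phenylpropanoid pathway. Its probe set (locus AT5G04330) gave 30.2 and 29.8 in se-1, 3.68 and 12.1 in ago1-27, 41.3 and 39.4 in se-1 p35S::MIR156, and 29.8 and 28.4 in Col-0. The ago1-27 arrays were the lowest, both within background, and the arrays of the transgenic line were the highest. Of the se-1 arrays 1 was also within background. The means were 29.98 ± 0.291 in se-1, 7.89 ± 5.96 in ago1-27, 40.3 ± 1.32 in se-1 p35S::MIR156 and 29.1 ± 0.955 in Col-0 (SD, n = 2 each).

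Because both ago1-27 signals of CYP84A4 were not above background, the difference has only a bound. Set against the geometric mean of the highest bacterial signals on both ago1-27 arrays, Col-0 was at least 1.06-fold higher than ago1-27. The brighter of those bacterial signals, 34.1, lay above both Col-0 signals of CYP84A4. No bound is given for se-1, since 1 of its own arrays was within background. The fitted log2 change was -0.94 in ago1-27 relative to Col-0 (adjusted p = 0.147) and 0.97 in se-1 relative to ago1-27 (adjusted p = 0.0919). It was 0.03 in se-1 relative to Col-0 (95% interval -0.60 to 0.65, adjusted p = 0.989). The values of the transgenic line were 0.29 relative to se-1 (95% interval -0.33 to 0.92, adjusted p = 0.830) and 0.32 relative to Col-0 (95% interval -0.30 to 0.95, adjusted p = 0.850), and these arrays did not overlap those of either genotype.

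**Figure D2:**
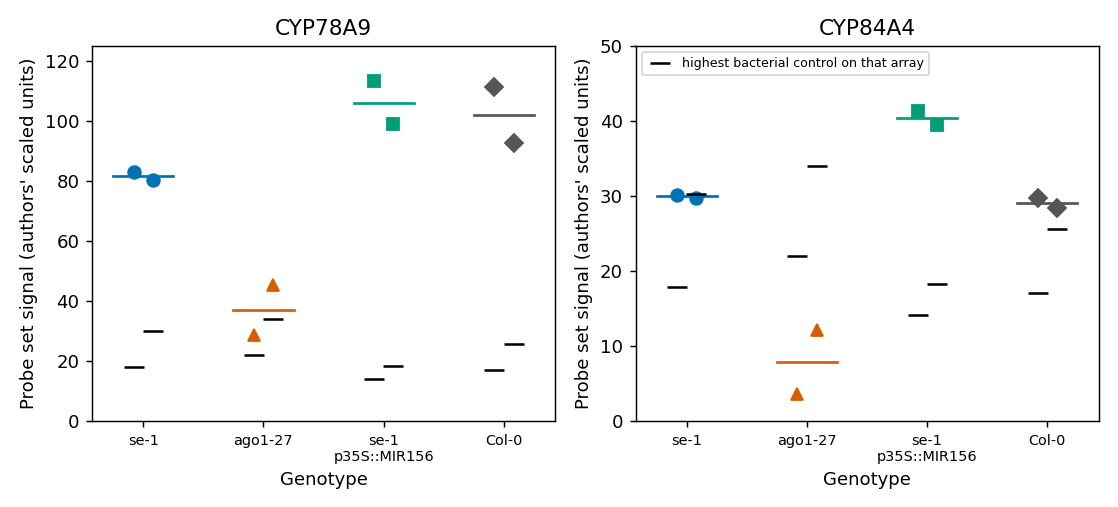
Signals of CYP78A9 (left) and CYP84A4 (right) in authors' scaled units on linear axes from 0, by genotype. Symbols are single arrays, horizontal lines are means of 2 arrays, and black ticks are the highest bacterial control on each array. The CYP78A9 mean is 37.0 in ago1-27 and between 81.7 and 106 in the other genotypes, and both CYP84A4 signals of ago1-27, 3.68 and 12.1, lie under the ticks.

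Other measures moved with the ago1-27 arrays, and their part in the CYP78A9 and CYP84A4 values was not tested. The actin 3'/5' ratio was highest on both ago1-27 arrays. For 4 of 6 root marker genes a probe set was found, and their summed signal was 731 and 1019 in se-1, 269 and 215 in ago1-27, 2459 and 1619 in se-1 p35S::MIR156, and 1754 and 1839 in Col-0. Most of each sum was the glucosidase gene PYK10, with 639 and 933 in se-1, 211 and 123 in ago1-27, 2337 and 1545 in se-1 p35S::MIR156, and 1648 and 1678 in Col-0. PYK10 was called lower in both se-1 and ago1-27 relative to Col-0, and higher in se-1 p35S::MIR156 relative to se-1 and in se-1 relative to ago1-27. AT1G62510 was called lower in ago1-27 relative to Col-0. HRGP1, the fourth, averaged 58.2 in ago1-27 and 55.8 in Col-0 and was not called in any comparison, nor was AT1G49570. AT1G62510 and AT1G49570 were within background on both ago1-27 arrays, and no root marker was at 0. Of the shoot markers, the meristem gene CLV3 was above background on only 1 array, and the leaf primordium gene YAB3 was above it on all 8, between 298 and 560. No flower or epidermis marker had a probe set paired with it alone. Fewer cells of a type and less RNA per cell cannot be told apart in such samples.

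At most 1 of the 10 tested P450 genes was called in any comparison. In se-1 relative to Col-0, 0 were called by limma, against 1.09% of all tested probe sets (0.741% higher and 0.345% lower), and 0 had an unadjusted p under 0.05, against 1910 of the 15922 probe sets. Their median change was 0.08, and that of all tested probe sets 0.02. For ago1-27 relative to Col-0, 1 was called, against 1.66% of all, and 2, CYP78A9 and CYP84A4, had an unadjusted p under 0.05, against 2080 probe sets. The medians were again 0.08 for the P450 genes and 0.02 for all. In se-1 p35S::MIR156 relative to se-1, 0 were called, against 0.358% of all (0.220% higher and 0.138% lower), and 0 had an unadjusted p under 0.05, against 1439 probe sets. The median was 0.09 for the P450 genes and -0.03 for all. In the transgenic line relative to Col-0, 0 were called, against 0.842% of all (0.565% higher and 0.276% lower), and 0 had an unadjusted p under 0.05, against 1497 probe sets. The median was 0.12 for the P450 genes and -0.02 for all. In se-1 relative to ago1-27, 1 was called, against 3.37% of all, and 3, CYP78A9, CYP84A4 and CYP71B6, had an unadjusted p under 0.05, against 2508 probe sets. The median was 0.04 for the P450 genes and -0.0025 for all. A count of 1 in 10 is too small to set apart from these shares.

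The 8 tested CYP71B genes did not pass the test in any comparison. Over the 5 comparisons this gives 40 fitted log2 changes, which lay between -0.54 and 0.60, and 0 were called. Their 95% intervals included 0 in 39 of the 40. The lowest and highest bounds of these intervals were 0.453-fold and 2.67-fold, both for CYP71B26, and those of the other genes were narrower. The interval that did not include 0 was that of CYP71B6 in se-1 relative to ago1-27.

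CYP71B6 converts indole acetonitrile to indole carboxylic acid, a compound of pathogen defence. Its signals were 150.2 and 193 in se-1, 269 and 241 in ago1-27, 224 and 190.1 in se-1 p35S::MIR156, and 195 and 248 in Col-0. The se-1 arrays lay below those of ago1-27 and Col-0, and the arrays of the transgenic line overlapped those of se-1 and Col-0. The change was -0.54 in se-1 relative to ago1-27 (95% interval -0.96 to -0.11, adjusted p = 0.180). Relative to Col-0 it was -0.34 in se-1 (adjusted p = 0.550) and 0.20 in ago1-27 (adjusted p = 0.747). In se-1 p35S::MIR156 it was 0.25 relative to se-1 (adjusted p = 0.758) and -0.08 relative to Col-0 (adjusted p = 0.952).

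CYP71B35 was at or near background and did not pass. It gave 31.6 and 29.4 in se-1, 29.9 and 41.1 in ago1-27, 23.1 and 25.7 in se-1 p35S::MIR156, and 23.6 and 19.1 in Col-0. Both mutants lay above Col-0 on all their arrays. The changes relative to Col-0 were 0.32 in se-1 (adjusted p = 0.729), 0.46 in ago1-27 (adjusted p = 0.540) and 0.12 in se-1 p35S::MIR156 (adjusted p = 0.952). CYP71B38 gave 33.2 and 20.9 in se-1, 32.8 and 19.5 in ago1-27, 18.2 and 22.9 in se-1 p35S::MIR156, and 23.7 and 12.05 in Col-0. Its genotypes overlapped, and 3 of its 8 signals were within background. Its changes relative to Col-0 were 0.35 in se-1 (adjusted p = 0.746) and 0.32 in ago1-27 (adjusted p = 0.748).

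CYP71B37 was lowest in ago1-27 by its mean. The signals were 118 and 49.97 in se-1, 40.1 and 52.6 in ago1-27, 74.8 and 94.01 in se-1 p35S::MIR156, and 69.1 and 68.9 in Col-0. The se-1 arrays differed from each other more than any genotype means did, and the second of them fell between the ago1-27 arrays. The change was -0.45 in ago1-27 relative to Col-0 (95% interval -1.07 to 0.16, adjusted p = 0.563). In se-1 relative to ago1-27 it was 0.60 (95% interval -0.02 to 1.21, adjusted p = 0.334).

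CYP71B26 and CYP71B28 varied more between replicate arrays than between genotypes. CYP71B26 gave 282 and 114 in se-1, 167 and 278 in ago1-27, 106 and 281 in se-1 p35S::MIR156, and 99.1 and 213 in Col-0. All 4 genotypes overlapped. CYP71B28 gave 83.2 and 51.6 in se-1, 38.5 and 100.1 in ago1-27, 63.5 and 84.6 in se-1 p35S::MIR156, and 78.4 and 96.6 in Col-0. The lowest and the highest signal of CYP71B28 were both ago1-27 arrays. For CYP71B26 the changes relative to Col-0 were 0.28 in se-1 (adjusted p = 0.878), 0.52 in ago1-27 (95% interval -0.39 to 1.42, adjusted p = 0.673) and 0.23 in se-1 p35S::MIR156 (adjusted p = 0.941). For CYP71B28 they were -0.33 in se-1 (adjusted p = 0.756), -0.37 in ago1-27 (adjusted p = 0.682) and -0.21 in se-1 p35S::MIR156 (adjusted p = 0.926).

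CYP71B34 was the steadiest of the genes above background. Its signals were 69.2 and 67.2 in se-1, 71.8 and 56.7 in ago1-27, 75.3 and 72.5 in se-1 p35S::MIR156, and 64.8 and 57.0 in Col-0. All 8 values lay close together: the genotype means spanned 0.23 on the log2 scale, and the residual SD of 0.111 was the lowest of the 10 tested genes. CYP71B5 gave 25.9 and 35.6 in se-1, 54.1 and 36.7 in ago1-27, 38.1 and 21.2 in se-1 p35S::MIR156, and 46.4 and 34.9 in Col-0. The ago1-27 arrays were both above the se-1 arrays, and the change in se-1 relative to ago1-27 was -0.39 (adjusted p = 0.573). Relative to Col-0, CYP71B5 had changes of -0.28 in se-1 (adjusted p = 0.788), 0.11 in ago1-27 (adjusted p = 0.922) and -0.33 in se-1 p35S::MIR156 (adjusted p = 0.832).

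**Figure D3:**
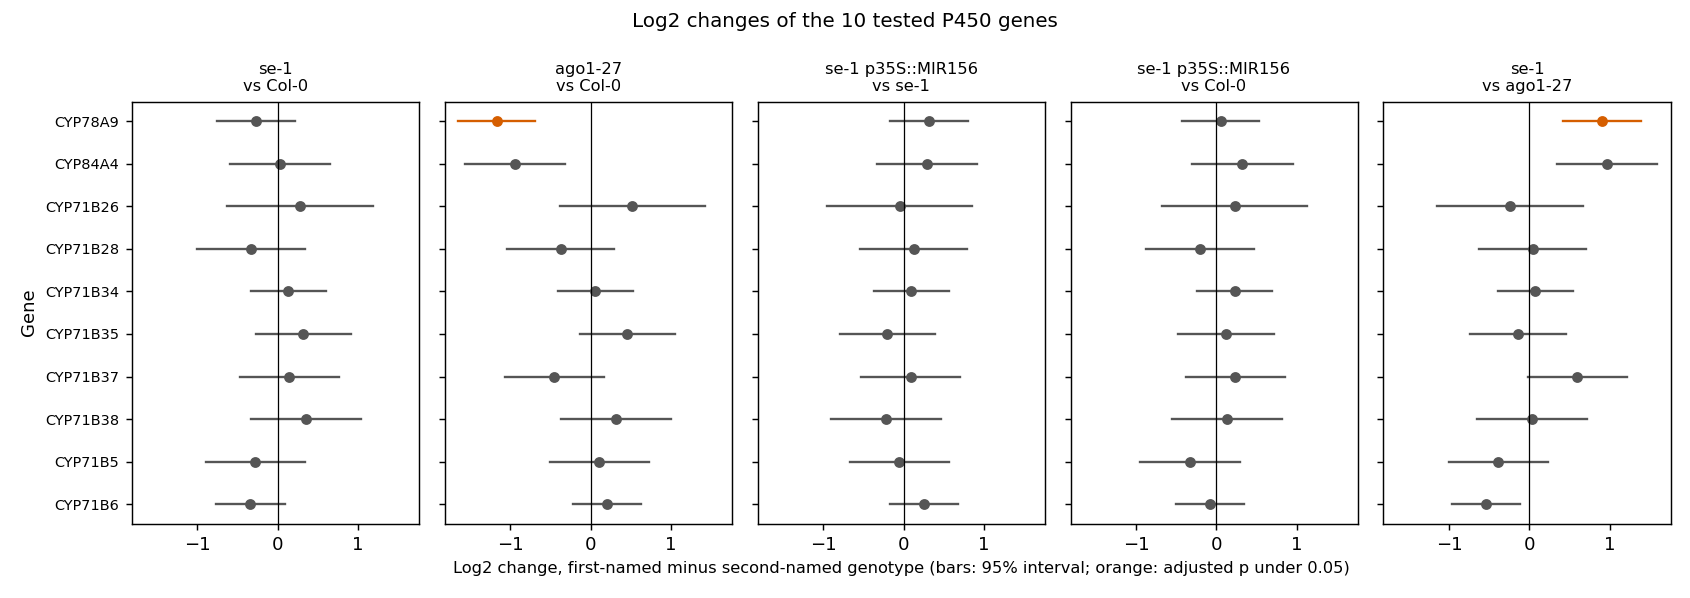
Log2 change of the 10 tested P450 genes in the 5 comparisons, first-named minus second-named genotype, on log2(signal + 16). Points are fitted changes, bars are 95% intervals, and orange marks an adjusted p under 0.05. The orange points are CYP78A9 in ago1-27 relative to Col-0, at -1.17, and in se-1 relative to ago1-27, at 0.90.

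The arrays of the genotypes compared did not overlap for 4 P450 genes in se-1 relative to Col-0, against 42.9% of all tested probe sets, for 4 in ago1-27 relative to Col-0, against 40.8%, and for 4 in se-1 relative to ago1-27, against 43.3%. For se-1 p35S::MIR156 they did not overlap for 4 relative to se-1, against 41.7%, and for 3 relative to Col-0, against 41.1%. These counts of 10 are close to the shares over all probe sets. By subfamily, the medians of the 8 CYP71B genes were 0.14 in se-1 and 0.15 in ago1-27 relative to Col-0, 0.02 in se-1 p35S::MIR156 relative to se-1 and 0.12 relative to Col-0, and -0.05 in se-1 relative to ago1-27. CYP78A9 and CYP84A4, each the only tested gene of its subfamily, were the genes with the lowest values in ago1-27 relative to Col-0. Whether they differ from the CYP71B genes was not tested.

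A moderated F test over the 4 genotypes called 1 of the 10 P450 genes, CYP78A9 (F = 12.5, adjusted p = 0.00919 by limma), against 5.34% of all tested probe sets. It uses the same ago1-27 arrays as the comparisons above. The call was lost with dim probe sets kept in (adjusted p = 0.0715) and without ago1-27 replicate 1 (adjusted p = 0.0809). CYP84A4 was not called (F = 6.96, adjusted p = 0.0602), but was with quantile normalization (adjusted p = 0.0381) and with eBayes without a trend (adjusted p = 0.0197). The genotype means spanned 1.22 on the log2 scale for CYP78A9 and 1.26 for CYP84A4, while the largest difference between replicate arrays was 0.46 for CYP78A9 and 0.51 for CYP84A4. The CYP84A4 span rests on ago1-27 signals within background, so its size is not measured. The span of the genotype means exceeded the largest replicate difference in 4 of the 10, which also include CYP71B35 (0.46 against 0.32) and CYP71B6 (0.54 against 0.33), and it did so in 42.9% of all tested probe sets. At the other end, CYP71B26 had genotype means within 0.52 of each other and replicate arrays up to 1.29 apart. Its residual SD of 0.753 was larger than that of 99.8% of tested probe sets.

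**Figure D4:**
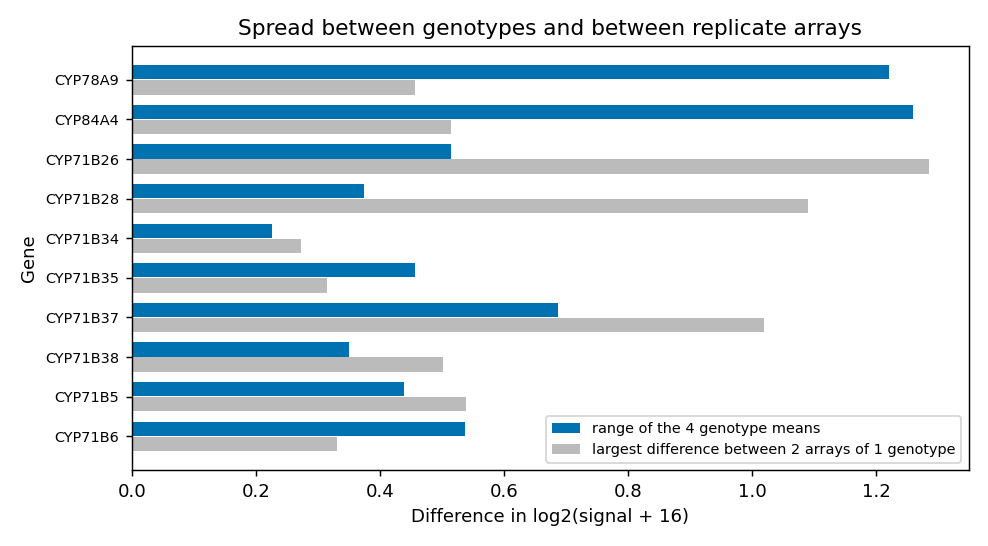
Span of the 4 genotype means (blue) and largest difference between the 2 arrays of a genotype (grey) for each tested P450 gene, in log2(signal + 16). The blue bar is longer for CYP78A9, CYP84A4, CYP71B35 and CYP71B6. CYP71B26 has the longest grey bar, at 1.29.

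Many of the CYP71B genes lie side by side. In the TAIR10.1 gene order, 10 of them fall in a single run of 24 genes, 18 of which have a CYP71B symbol. Of these 10, CYP71B26, CYP71B34, CYP71B35 and CYP71B37 were tested, and the other 6 were within background on every array. CYP71B22 lies in the same run, directly between CYP71B21 and CYP71B23. Its signals were 304 and 607 in se-1, 654 and 523 in ago1-27, 62.9 and 54.4 in se-1 p35S::MIR156, and 105 and 59.7 in Col-0, so that both mutants stood well above the other genotypes. Its neighbours gave no such pattern above background: CYP71B21 lay between 0.516 and 14.7 and CYP71B23 between 1.81 and 30.7. None of CYP71B26, CYP71B34, CYP71B35 and CYP71B37 was called in any comparison, whereas CYP71B22 was called higher in both mutants relative to Col-0. A smaller run holds CYP71B27, CYP71B28 and CYP71B29, and another CYP71B5, CYP71B30P and CYP71B31, and in each of them 1 gene was tested.

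A few genes from lists of P450-related pathways could be read as well. The lists of P450-related pathways and redox partners held 165 genes. A probe set of its own was found for 12 of them, and 9 were tested, so each pathway is covered only in small part. Besides CYP78A9, the 1 tested list gene called was DFR, an enzyme of anthocyanin synthesis, which rose by 1.46 in se-1 p35S::MIR156 relative to se-1 (adjusted p = 0.0110 by limma). The others tested were UGT74B1, a glucosyltransferase, and BCAT4, a transaminase, both of glucosinolate synthesis, HCT of lignin synthesis, the lycopene cyclase LYC, the diflavin reductase ATR3, and the P450 genes CYP71B6 and CYP84A4. None of these was called in any of the 5 comparisons. ATR3 was the only gene tested from the redox partner list, and whether it passes electrons to P450 enzymes was not tested. It gave 83.4 and 104 in se-1, 104 and 61.1 in ago1-27, 68.7 and 49.1 in se-1 p35S::MIR156, and 62.9 and 75.6 in Col-0. The genotypes overlapped, except that se-1 lay above both of the last.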

How the data were processed

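Total RNA had been amplified and biotin-labelled, and hybridized to 8 ATH1 arrays, per the labels' protocols. The deposited values are linear probe set intensities, per the file headers and values, and GCOS is named in the submitters' processing notes with no version. The signal algorithm is not given in the sources used here. Here log2(signal + 16) was taken without renormalizing. Of the 22746 probe sets that are not among the 64 controls, the 30% with the lowest mean were dropped. The 8 arrays entered a single limma fit (version 3.58.1, R 4.3.3; lmFit, eBayes with a trend) with a mean for each genotype, 4 residual and 11.27 prior degrees of freedom. Benjamini-Hochberg adjustment ran over all 15922 tested probe sets in each of 5 comparisons. The 2 arrays per genotype limit the precision. All P450 genes had 1 probe set. Probe sets with several genes were not used, which removed 2 for P450 genes. The members, the lists and the tests were chosen with earlier results of these data known. Genes named are the called ones, the 4 largest rises and falls in each comparison, tested list members and those with the widest span of means. Names and neighbours come from RefSeq (TAIR10.1), and no coordinates are given because the files name no build. Differences between replicates 2 and 1 correlated between genotypes, across probe sets, with r between -0.21 and 0.11. This cannot show whether replicate numbers pair the samples. In every genotype the highest bacterial signal was higher on replicate 2. From replicate 1 to 2 it went from 18.0 to 30.2 in se-1 and from 22.0 to 34.1 in ago1-27. It went from 14.2 to 18.3 in se-1 p35S::MIR156 and from 17.1 to 25.6 in Col-0. The counts above background depend on these signals, and the cause of the shift was not tested. Alternatives were another pseudocount, filter, normalization or variance model, a replicate block, only the 2 genotypes compared, and leaving out each array.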

Additional observations from a re-analysis of the deposited data

Results flagged for a closer look

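CYP78A9 was noted because its effect differed between the mutants: the se-1 value minus the ago1-27 value, which is the difference between their changes relative to Col-0, was 0.90 on the log2 scale (adjusted p = 0.0402 by limma). The call was lost in 10 of 16 alternative settings, among them 7 of the 8 that leave out 1 array, with adjusted p up to 0.160. The means were 81.7 in se-1 and 37.0 in ago1-27. With 2 arrays per genotype, single arrays that stand apart could not be tested for.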

How the results depend on the processing

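Of 810 fitted values of single P450 genes under the alternatives, 762 kept their direction and their side of the threshold, 14 lost a call, 1 gained one, and 33 changed sign, 0 of which were called. The causes were not tested unless given. In ago1-27 relative to Col-0, the count of P450 genes called lower was 0 in the unfiltered fit and 0 after removing the lowest 50%, where CYP78A9 was not tested, and 0 to 1 without single arrays. Over 16 settings the change of CYP78A9 there lay between -1.47 and -0.72. Its call was lost with dim probe sets kept in, without either Col-0 array and without ago1-27 replicate 1. Leaving out arrays of se-1 or the transgenic line did not alter its change, since these arrays are not compared there. In se-1 relative to ago1-27, the count called higher was 0 with pseudocount 64, in the unfiltered fit, after removing the lowest 50% and with only the 2 genotypes compared, 2 with eBayes without a trend (CYP84A4 added, adjusted p = 0.0329), and 0 to 1 without single arrays. The count by the F test was 0 in the unfiltered fit and 0 after removing the lowest 50%, 2 with quantile normalization and with no trend, and 0 to 1 without single arrays. With the replicate number as a block the counts of called P450 genes did not change: CYP78A9 had adjusted p = 0.0151 in ago1-27 relative to Col-0 and 0.0476 in se-1 relative to ago1-27. The median change moved to 0.36 in ago1-27 relative to Col-0 and -0.39 in se-1 relative to ago1-27 with the lowest 50% left out, which leaves CYP71B6 and CYP71B26. Without single arrays it lay between -0.15 and 0.092 in se-1 relative to Col-0 and between -0.17 and 0.28 in se-1 relative to ago1-27.

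Sign changes came with quantile normalization in CYP84A4, se-1 relative to Col-0 (-0.00055), and CYP71B5, se-1 p35S::MIR156 relative to se-1 (0.019), and otherwise without single arrays. Those ranges were, in se-1 relative to Col-0, -0.32 to 0.87 for CYP71B26 and -0.37 to 0.65 for CYP71B37. In ago1-27 relative to Col-0 they were -0.92 to 0.17 for CYP71B28, -0.080 to 0.19 for CYP71B34 and -0.10 to 0.31 for CYP71B5. For se-1 p35S::MIR156 relative to se-1 they were -0.69 to 0.59 for CYP71B26, -0.15 to 0.40 for CYP71B28, -0.42 to 0.60 for CYP71B37 and -0.32 to 0.22 for CYP71B5. Relative to Col-0 the transgenic line had -0.42 to 0.87 for CYP71B26, -0.12 to 0.38 for CYP71B38, -0.25 to 0.077 for CYP71B6 and -0.062 to 0.16 for CYP78A9. In se-1 relative to ago1-27 they were -0.84 to 0.36 for CYP71B26, -0.50 to 0.59 for CYP71B28, -0.061 to 0.21 for CYP71B34, -0.30 to 0.019 for CYP71B35 and -0.20 to 0.26 for CYP71B38.

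Over all probe sets, the number called with no filter was 68 against 173 in se-1 and 98 against 265 in ago1-27 relative to Col-0, 15 against 57 in se-1 p35S::MIR156 relative to se-1, 28 against 134 relative to Col-0, and 249 against 537 in se-1 relative to ago1-27. Other counts that moved by over 1.5 times were 25 and 75 in the transgenic line relative to se-1 and Col-0 with no trend, and 280 in it relative to Col-0 and 263 in se-1 relative to ago1-27 with only the 2 genotypes compared. Without single arrays the lowest counts were 32 in se-1 and 81 in ago1-27 relative to Col-0, 10 in the transgenic line relative to se-1, 14 in it relative to Col-0, and 257 in se-1 relative to ago1-27.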

Other observations

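In CYP71B26 and CYP71B28, replicate 1 gave the higher signal in se-1 and replicate 2 the higher signal in ago1-27, se-1 p35S::MIR156 and Col-0. This pattern was noticed after the values were seen. It held for 2 of the 10 tested P450 genes and for 9.20% of all tested probe sets. CYP71B29, next to CYP71B28 and too dim to be tested, gave 4.02 and 22.2 in se-1, 15.9 and 26.0 in ago1-27, 23.0 and 18.2 in se-1 p35S::MIR156, and 1.36 and 2.20 in Col-0, of which 1 signal of the transgenic line was above background. CYP71B16, within background on all arrays, gave 3.25 and 0.825 in se-1, 1.09 and 2.15 in ago1-27, 4.74 and 6.29 in se-1 p35S::MIR156, and 13.1 and 11.8 in Col-0. Signals at that level have no order.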
